A study of Xenopus laevis with 39 samples.

Results

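Nerve cells declare their transmitter through a small set of genes, and 9 gene entries of the African clawed frog Xenopus laevis that mark GABA and glutamate neurons were followed through the nose and the olfactory bulb. They are the entries whose name without its .L or .S ending is gad1.1, gad2, slc32a1, slc17a6 or slc17a7, a choice made with earlier results of these data known, and they are 9 of the 37223 entries in the count table. Xenopus laevis is an allotetraploid, so most genes exist as a long (.L) and a short (.S) chromosome copy, called homeologs, and each copy was kept apart. The rule found gad1.1.L, gad1.1.S, gad2.L, slc32a1.L and slc32a1.S for GABA, and slc17a6.L, slc17a6.S, slc17a7.L and slc17a7.S for glutamate. No second copy of gad2 was among the entries.

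GABA, the main inhibitory transmitter of the forebrain, is made from glutamate by the glutamate decarboxylases that the gad genes encode, and slc32a1 encodes the vesicular GABA transporter (VGAT) that loads it into synaptic vesicles. Glutamate, the main excitatory transmitter, is loaded by the vesicular transporters VGLUT2 (slc17a6) and VGLUT1 (slc17a7). In the vertebrate olfactory system the receptor neurons of the nose send their axons to the bulb and release glutamate there onto mitral and tufted cells, which are glutamatergic themselves, while the granule cells and most periglomerular cells of the bulb release GABA. Cutting the olfactory nerve makes receptor neurons die and be replaced, and takes from the bulb its sensory input.

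RNA sequencing covered 39 libraries in 13 groups of 3. Control larvae before metamorphosis gave whole noses, whole bulbs and, dissected apart, the principal cavity (the main olfactory epithelium) and the vomeronasal organ (VNO), which one label field calls an olfactory lobe. Transected larvae gave noses and bulbs at 3 times after the cut, 2 days, 1 week and 7 weeks. Noses of larvae exposed for 5 h to amino acids, which are odorants for this animal, came at doses that the titles write as 200 and 1000 with an incomplete unit. Adult noses came from stage 66, after metamorphosis. No genotype, strain or age is given for any group, and no operated group had an uncut group of the same time, so that time since the cut cannot be told apart from growth of the larvae. Nothing in the labels ties the libraries to different animals, so p-values measure the spread between libraries, which may be technical. Column names give the group of a library and a number from 1 to 3, and that number names the library below.

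The count totals per library ran from 25.82 M to 180.5 M, and the middle library had 69.66 M. Over 23 forebrain marker entries, the summed level in control bulbs was 2280 to 2470 TPM (transcript level scaled for gene length and library size), against 220 to 327 TPM in control noses. Over 20 olfactory epithelium marker entries, control noses held 1740 to 2140 TPM and control bulbs 54.8 to 64.9 TPM. Cell cycle markers set the control larvae apart from the operated ones. Of 21 entries, 19 were lower than in control larvae at 2 days, 1 week and 7 weeks, in bulbs and in noses alike. So were 19 in adult noses, 19 in noses at the amino acid dose of 200 and 20 at 1000. Over all genes, 10.6% (noses at 2 days) to 33.7% (bulbs at 7 weeks) were called lower in these comparisons. The part of the cell cycle markers in the results below was not tested. In bulk tissue, fewer cells of a type and less RNA per cell cannot be told apart.

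In control larvae the genes of GABA neurons were bulb transcripts, and those of glutamate loading were present in both organs. gad1.1.L stood at 102, 104 and 115 TPM in the 3 control bulbs and at 0.0141, 0.025 and 0.0398 TPM in the 3 control noses, where it drew 2, 5 and 10 reads. slc32a1.S, the more abundant copy of the vesicular GABA transporter, stood at 121, 128 and 120 TPM in bulbs and at 0.0347, 0.041 and 0.0458 TPM in noses. The bulb and nose libraries did not overlap for either gene, and the bulb levels were higher by far. How many of all genes were separated in this way was not counted, here or in the comparisons below.

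The glutamate transporters spanned a narrower range. slc17a7.L, a copy of VGLUT1, stood at 32.5, 35.1 and 35.4 TPM in control bulbs and at 5.46, 8.11 and 5.57 TPM in control noses. slc17a6.L, a copy of VGLUT2, stood at 3.77, 4.27 and 3.96 TPM in bulbs and at 1.41, 2.05 and 1.44 TPM in noses. Every bulb library again lay above every nose library. All 9 entries were higher in the bulb by edgeR's quasi-likelihood test (adjusted p under 0.05 with Benjamini-Hochberg correction over all genes, the rule for every call below), at a background of 74.8% of all 34508 tested genes called and 35.1% called higher in the bulb. The log2 fold change, on the scale of counts normalised by the trimmed mean of M values (TMM), was 0.88 ± 0.19 (SE) for slc17a6.L and 11.43 ± 0.84 for gad1.1.L. For slc32a1.L it was 10.16 ± 0.58, and 11.35 without control nose library 2.

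**Figure D1:**
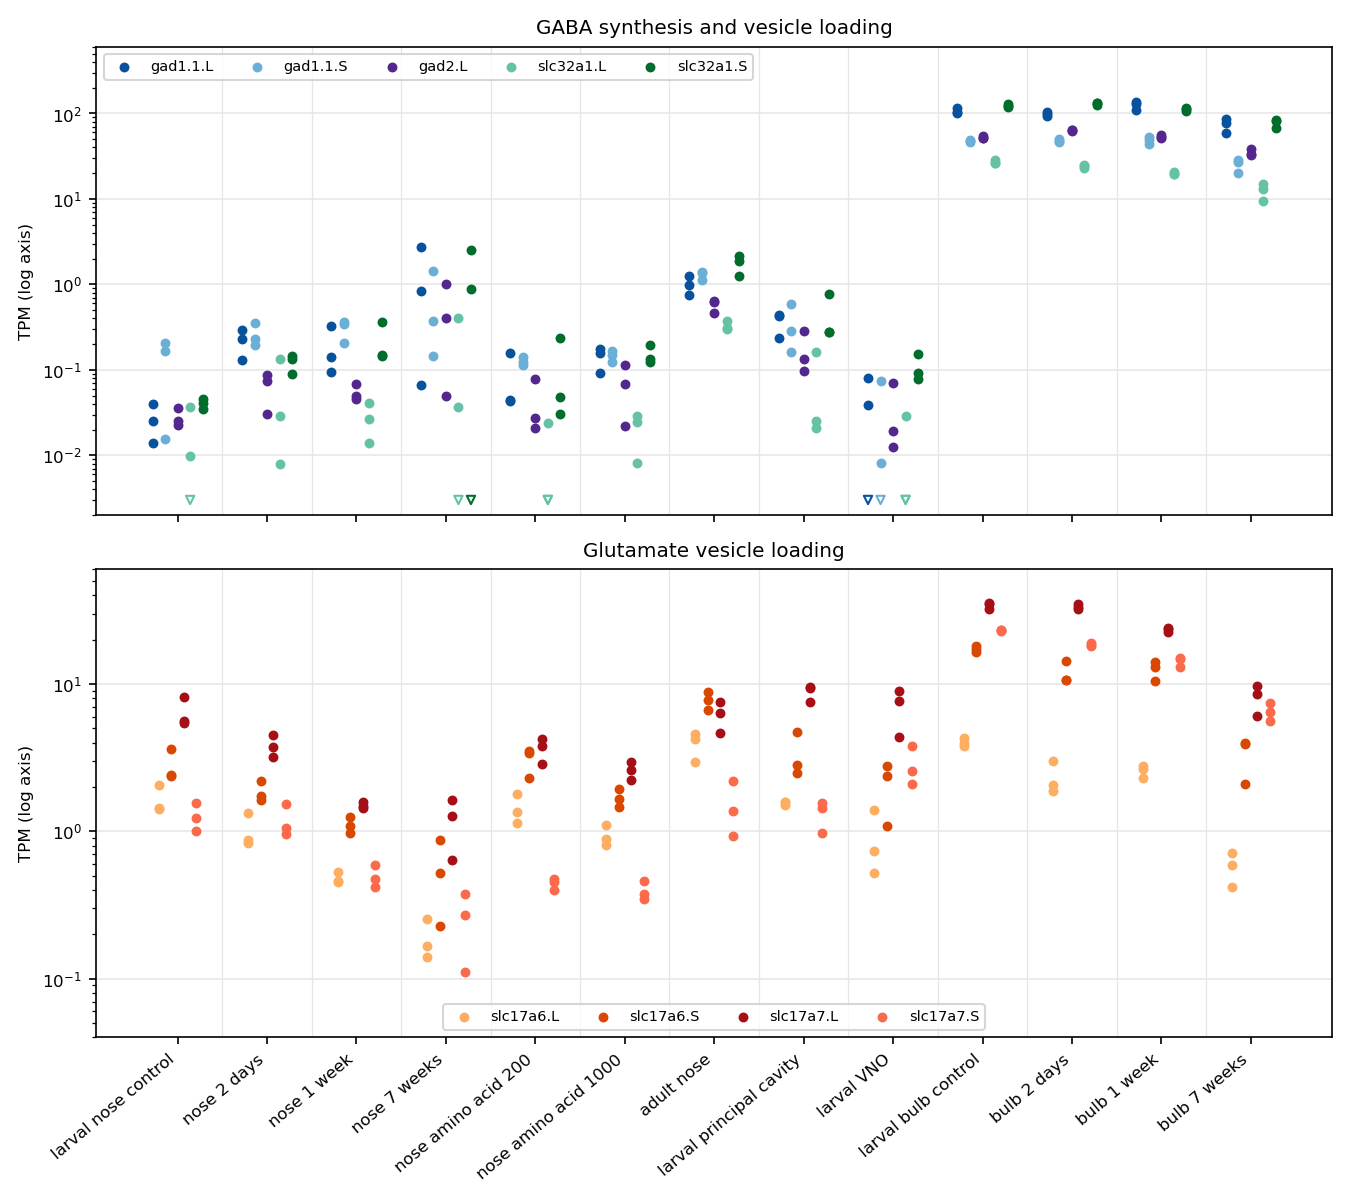
Level of each of the 9 entries in every library (TPM, log axis), with the GABA genes above and the glutamate transporters below. Each point is 1 library and open triangles mark libraries without a read, and the GABA genes lie between 9.46 and 137 TPM in bulbs and at or below 2.77 TPM in noses.

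Ranked over the 13 groups, the 4 bulb groups held the top 4 places for all 5 GABA entries, and the 7-week bulbs lay lowest of the 4. For gad1.1.L the order ran from 1-week bulbs (mean 126 TPM) through control bulbs (107 TPM) and 2-day bulbs (98.7 TPM) to 7-week bulbs (74.4 TPM), and the libraries of neighbours overlapped for the first 3. The nose groups followed far below, led by 7-week noses (1.23 TPM) and adult noses (1.00 TPM), whose libraries overlapped, and ended with the VNO (0.0397 TPM) and control noses (0.0263 TPM), which overlapped too. The glutamate transporters were ordered otherwise. For slc17a7.L, the 7-week bulbs (8.14 TPM) ranked below the principal cavity (8.86 TPM) and above the VNO (7.02 TPM), and libraries of these neighbours overlapped. For slc17a6.S, adult noses (7.77 TPM) ranked above 7-week bulbs (3.32 TPM).

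After the nerve was cut, the glutamate transporters of the bulb fell, and the GABA genes changed little relative to other bulb genes. At 7 weeks slc17a6.L fell by 2.22 ± 0.15 (SE) on the log2 scale, slc17a6.S by 1.82 ± 0.14, slc17a7.L by 1.5 ± 0.07 and slc17a7.S by 1.23 ± 0.08, with edgeR adjusted p of 9.3e-08, 1.7e-07, 5.8e-09 and 4e-08. For gad1.1.L, gad2.L and slc32a1.S the log2 changes were 0.07 ± 0.08, 0.02 ± 0.12 and -0.05 ± 0.09, and none passed the test. The less abundant homeologs gad1.1.S and slc32a1.L fell by 0.33 ± 0.07 and 0.53 ± 0.08. These 6 of 9 calls stand beside 65.9% of 31701 genes called in the same comparison, 32.1% higher and 33.7% lower.

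VGLUT2, the transporter with the larger fall, showed it in every library. slc17a6.S stood at 16.6, 18.1 and 17.4 TPM in control bulbs, at 14.4, 10.6 and 10.6 TPM at 2 days, at 13.0, 14.0 and 10.5 TPM at 1 week and at 2.09, 3.95 and 3.92 TPM at 7 weeks. slc17a6.L went from 3.77, 4.27 and 3.96 TPM in control bulbs to 0.422, 0.595 and 0.71 TPM at 7 weeks. The control libraries lay above all operated libraries for both copies, and the 7-week libraries lay below those of every other bulb group. Such separation was not counted over all genes.

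Of the VGLUT1 copies, slc17a7.L stayed near its control level at 2 days and fell later, and slc17a7.S was lower from 2 days on. slc17a7.L stood at 32.2, 33.2 and 34.7 TPM at 2 days, close to the control values given above, at 23.5, 24.0 and 22.7 TPM at 1 week and at 6.09, 8.57 and 9.76 TPM at 7 weeks. slc17a7.S went from 23.0, 23.3 and 23.4 TPM in control bulbs to 18.9, 18.2 and 18.3 TPM at 2 days, 15.0, 14.7 and 13.1 TPM at 1 week and 5.63, 6.49 and 7.48 TPM at 7 weeks. For slc17a7.S no 2 of these 4 groups overlapped, and how many of all genes behaved so was not counted. Against control bulbs, 46.2%, 56% and 65.9% of all genes were called at 2 days, 1 week and 7 weeks.

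The GABA genes were lower in TPM at 7 weeks, while relative to the typical gene gad1.1.S and slc32a1.L were called lower and gad1.1.L, gad2.L and slc32a1.S were not. slc32a1.S stood at 68.2, 82.3 and 84.8 TPM and gad2.L, the smaller decarboxylase, at 34.0, 32.6 and 38.3 TPM in 7-week bulbs, against 51.9, 55.0 and 52.2 TPM for gad2.L in control bulbs. The 7-week libraries lay below the control libraries for both genes. Over 20149 genes of at least 1 TPM, however, the median log2 ratio of TPM between 7-week and control bulbs was -0.609. Over all tested genes, a different set, the median log2 change was -0.004 with TMM and 0.026 with the size factors of DESeq2. These scalings place the typical gene near no change by design, so their medians cannot show which scale holds for the GABA genes. The test, which uses TMM, called no fall for slc32a1.S and gad2.L.

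**Figure D2:**
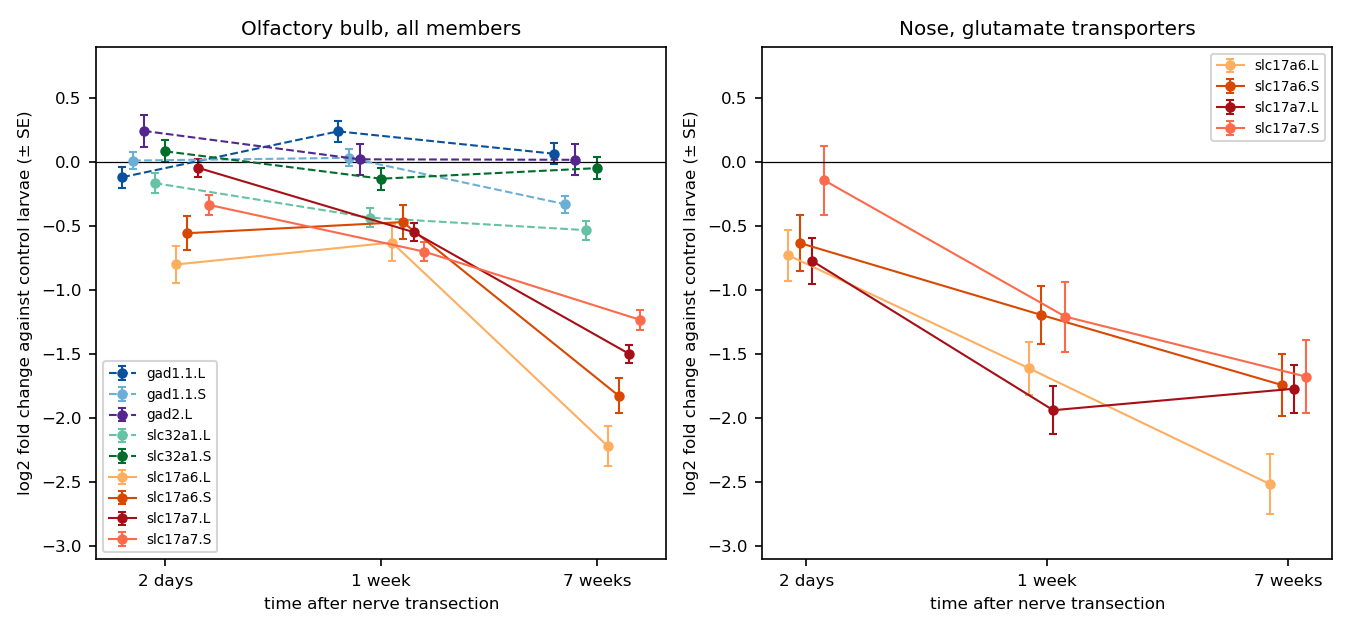
Log2 fold change against control larvae with its standard error (3 libraries a group, TMM scale) at 2 days, 1 week and 7 weeks after transection, in bulbs for all 9 entries and in noses for the 4 glutamate transporters. In bulbs the solid lines of the transporters end between -2.22 and -1.23 and the dashed lines of the GABA genes between -0.53 and 0.07.

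Some of the transporters, but not all, were already lower in bulbs at 2 days than in control bulbs. At 2 days slc17a6.L fell by 0.80 ± 0.15 (SE) on the log2 scale, slc17a6.S by 0.55 ± 0.13 and slc17a7.S by 0.33 ± 0.08, while slc17a7.L differed by -0.04 ± 0.07 and did not pass the test. None of the 5 GABA entries was called, and their log2 changes ran from -0.16 (slc32a1.L) to 0.24 (gad2.L). These 3 of 9 calls, all lower, stand beside 46.2% of genes called and 24.7% called lower.

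At 1 week all 4 transporters were lower, by 0.63 ± 0.15 for slc17a6.L, 0.47 ± 0.13 for slc17a6.S, 0.55 ± 0.07 for slc17a7.L and 0.70 ± 0.08 for slc17a7.S. Of the GABA genes, slc32a1.L fell by 0.43 ± 0.08 and gad1.1.L rose by 0.24 ± 0.08, at a background of 56% of genes called, 29.1% lower and 27% higher. gad1.1.L stood at 129, 137 and 111 TPM at 1 week, and its lowest library lay within the control range. Its edgeR call (adjusted p = 0.024) did not hold without control library 1 (adjusted p = 0.094), control library 2 (0.069), 1-week library 1 (0.072) or 1-week library 2 (0.11).

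Between operated groups, each transporter fell more from 1 week to 7 weeks than from 2 days to 1 week. Counted from control bulbs on the same scale, slc17a7.S had fallen more by 1 week than it fell afterwards, unlike the other transporters. From 1 week to 7 weeks slc17a6.L fell by 1.59 ± 0.15 (SE), slc17a6.S by 1.36 ± 0.14, slc17a7.L by 0.95 ± 0.07 and slc17a7.S by 0.53 ± 0.08, at a background of 38.6% of genes called, 18.5% lower and 20.1% higher; gad1.1.S fell by 0.36 ± 0.07 as well. From 2 days to 1 week VGLUT1 fell further, by 0.50 ± 0.07 for slc17a7.L and 0.37 ± 0.08 for slc17a7.S, at a background of 13.3% called, 7.35% lower and 5.91% higher. The call for slc17a7.S was lost without 1-week library 3 (adjusted p = 0.051). VGLUT2 differed by 0.17 ± 0.15 for slc17a6.L and 0.09 ± 0.13 for slc17a6.S over the same interval, which did not pass the test. gad1.1.L rose by 0.36 ± 0.08 and slc32a1.L fell by 0.27 ± 0.08 from 2 days to 1 week. Both calls ended without 1-week library 1 (adjusted p of 0.057 and 0.12) or 1-week library 2 (0.075 and 0.097), and that of slc32a1.L without 1-week library 3 (0.097), 2-day library 2 (0.11) or 2-day library 3 (0.14). That of gad1.1.L also ended without 2-day library 3 (0.081). From 2 days to 7 weeks 6 entries fell, slc17a6.L by 1.42 ± 0.15, slc17a6.S by 1.27 ± 0.14, slc17a7.L by 1.45 ± 0.07, slc17a7.S by 0.90 ± 0.08, slc32a1.L by 0.37 ± 0.08 and gad1.1.S by 0.34 ± 0.07, at a background of 50.9% called, 25.3% lower and 25.6% higher.

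The small changes of the GABA homeologs depended on reading the copies apart. With the counts of both copies summed, gad1.1 at 7 weeks differed by -0.08 (adjusted p = 0.34) and slc32a1 by -0.15 (adjusted p = 0.12). The 4 transporter calls at 7 weeks held in every alternative fit that was run. With all 39 libraries in 1 model, which takes its spread largely from noses, the calls of gad1.1.S and slc32a1.L at 7 weeks also ended (adjusted p of 0.56 and 0.30).

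Since TPM is per gene length, the levels of both transmitter classes can be set against each other within a library, which takes no account of scaling between libraries. The 5 GABA entries summed to 348, 363 and 363 TPM in control bulbs and the 4 glutamate entries to 75.9, 80.7 and 80.2 TPM. In 7-week bulbs the sums were 191, 233 and 253 TPM for GABA and 14.2, 19.6 and 21.9 TPM for glutamate. The ratio of GABA to glutamate was 4.58, 4.50 and 4.52 in control bulbs, 5.38, 5.68 and 5.53 at 2 days, 6.65, 6.91 and 6.92 at 1 week and 13.4, 11.9 and 11.6 at 7 weeks. No 2 of the 4 groups overlapped, and how often ratios of other genes separate in this way was not counted.

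On the log2 scale the ratio was higher than in control bulbs by 0.286 at 2 days, 0.591 at 1 week and 1.44 at 7 weeks. Each comparison reached p = 0.1 in a two-sided exact permutation test, also after adjustment over the 3 comparisons, which is the smallest p that 3 libraries against 3 allow. Over all 4 groups the exact permutation p was 6.49e-05, the smallest that the 369600 arrangements can give. The members were chosen with earlier results of these data known, and ratios of genes other than members were not computed. These p-values are therefore no independent support for a shift of the ratio. With VGAT over VGLUT2 alone (slc32a1 over slc17a6), the differences were 0.652, 0.323 and 1.78, so the order of 2 days and 1 week turned.

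**Figure D3:**
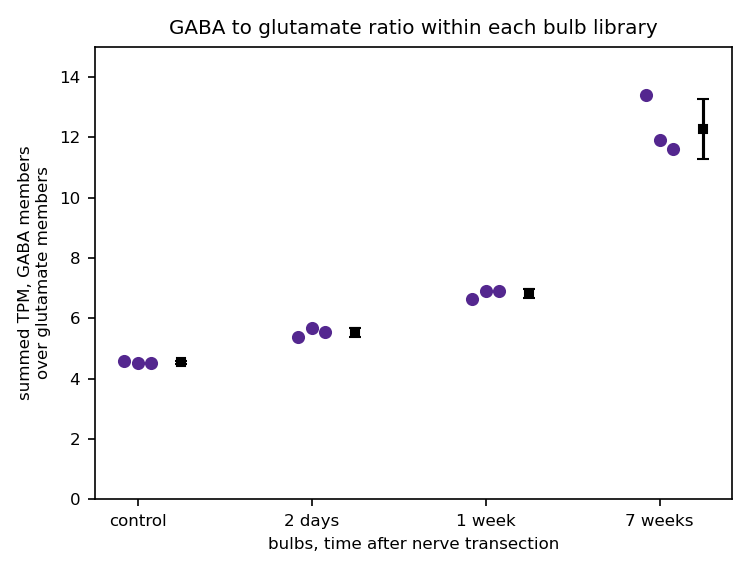
Summed TPM of the 5 GABA entries divided by that of the 4 glutamate entries in each bulb library (circles), with the mean and SD over 3 libraries (squares). The ratio lies near 4.5 in the 3 control libraries and between 11.6 and 13.4 in the 3 libraries at 7 weeks.

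Other genes of the same pathways moved in both directions in the bulb. The 7-week counts of this list and of those that follow stand beside the 65.9% of all genes called in that comparison, 32.1% higher and 33.7% lower. Of 14 tested entries for GABA uptake and breakdown, 6 were higher and 6 lower at 7 weeks, with a median log2 change of 0.063. slc6a13.L, a GABA transporter known in mammals from the meninges and the liver, fell by 1.09 ± 0.13 (SE) at 1 week and 1.46 ± 0.13 at 7 weeks.

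Of 19 tested entries for glutamate supply and uptake, 3 were higher and 8 lower at 7 weeks, with a median of -0.285, and 8 did not pass the test. The higher ones included both copies of glutamate dehydrogenase, a mitochondrial enzyme of glutamate breakdown: glud1.L rose by 1.52 ± 0.18 and glud1.S by 0.94 ± 0.11. The copies of slc1a2, the main glial glutamate transporter, parted, with slc1a2.S higher by 0.74 ± 0.07 and slc1a2.L lower by 0.99 ± 0.10. Of 20 entries for other transmitters, 7 were higher and 4 lower at 7 weeks, and dbh.L, which makes noradrenaline from dopamine, rose by 2.01 ± 0.17 at 2 days, 2.40 ± 0.17 at 1 week and 2.99 ± 0.17 at 7 weeks.

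Transcription factors of the precursors of glutamate neurons were mostly lower at 7 weeks, and among those of GABA neurons lower entries outnumbered higher ones. The 7-week bulb libraries disagreed in summed TPM. In libraries 1 to 3 the sums were 428, 699 and 732 TPM for the glutamate lineage and 350, 869 and 690 TPM for the GABA lineage. Control bulbs held 1490 to 1570 and 1400 to 1470 TPM. The 23 forebrain entries summed to 848, 1860 and 1630 TPM, against 2280 to 2470 TPM in control bulbs. The part of library 1 in the counts that follow was not tested. Of 28 entries of the glutamate lineage, 1 was higher and 21 lower, with a median log2 change of -1.109, and of 30 entries of the GABA lineage 2 were higher and 15 lower, with a median of -0.407, beside 33.7% of all genes called lower. neurog2.L and neurog1.L, proneural factors of cortical and olfactory precursors, fell by 3.71 ± 0.15 and 4.23 ± 0.31. At 2 days the GABA lineage list had 17 entries higher and 4 lower, among them dlx5.L, higher by 0.79 ± 0.20, beside 46.2% of all genes called, 21.6% higher and 24.7% lower.

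Genes shared by most neurons moved with the transporters. Of 30 general neuron entries, 4 were higher and 23 lower in bulbs at 7 weeks, beside 33.7% of all genes called lower, with a median of -0.908 over the list and -0.004 over all genes. tubb3.L, the neuronal beta-tubulin, fell by 3.07 ± 0.14, and syn2.S, a synaptic vesicle protein, by 1.80 ± 0.10. The summed level of the list was 5340 to 5590 TPM in control bulbs and 1270 to 1530 TPM at 7 weeks. Leukocyte and microglia markers stood at 142 to 197 TPM in control bulbs, 479 to 579 TPM at 2 days and 118 to 159 TPM at 7 weeks, and glial markers at 3760 to 4680 TPM in control bulbs and 1300 to 1430 TPM at 7 weeks. The part of these cell types in the fall of the transporters was not tested.

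In noses after transection the glutamate transporters were lower too, and they were still lower at 7 weeks. slc17a7.L stood at 5.46, 8.11 and 5.57 TPM in control noses, at 4.53, 3.73 and 3.20 TPM at 2 days, at 1.57, 1.43 and 1.49 TPM at 1 week and at 1.64, 1.28 and 0.638 TPM at 7 weeks. slc17a6.L stood at 1.41, 2.05 and 1.44 TPM, then at 1.33, 0.839 and 0.88 TPM at 2 days, at 0.527, 0.461 and 0.456 TPM at 1 week and at 0.256, 0.14 and 0.167 TPM at 7 weeks. For both genes all operated libraries lay below all control libraries, and how many of all genes did so was not counted. The 1-week and 7-week libraries overlapped for slc17a7.L, and for slc17a6.L they did not.

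At 1 week the 4 transporters fell by 1.61 ± 0.21 (SE) for slc17a6.L, 1.19 ± 0.22 for slc17a6.S, 1.94 ± 0.19 for slc17a7.L and 1.21 ± 0.27 for slc17a7.S, at a background of 39.7% of 34151 genes called and 21.6% called lower. At 7 weeks the log2 changes were -2.51 ± 0.23, -1.74 ± 0.24, -1.77 ± 0.19 and -1.68 ± 0.29 in the same order, at a background of 48.5% called and 26.8% called lower. These 8 calls held in every alternative that was run. At 2 days slc17a7.L fell by 0.77 ± 0.18, slc17a6.L by 0.73 ± 0.20 and slc17a6.S by 0.63 ± 0.22, at a background of 20.2% called and 10.6% called lower, and slc17a7.S differed by -0.14 ± 0.27. The 2-day call of slc17a6.S (adjusted p = 0.046) was lost without any 1 of the 6 libraries compared, with adjusted p between 0.0561 and 0.169, and that of slc17a6.L (0.013) without control library 2 (0.052), 2-day library 2 (0.08) or 2-day library 3 (0.076).

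Many olfactory epithelium markers rose between 1 and 7 weeks on the TMM scale, and no transporter was called higher over that interval. Of 20 markers, 16 were lower and none higher at 1 week than in control noses, and from 1 week to 7 weeks 12 rose and 2 fell, beside 17.1% of all genes called higher. At 7 weeks 15 were still lower than in control noses, beside 26.8% of all genes, and none was higher. The share of all genes called lower than in control noses at 1 week was 21.6%. The summed level of the 20 markers was 1740 to 2140 TPM in control noses, 680 to 771 TPM at 1 week and 566 to 864 TPM at 7 weeks, so it stayed below every control library. In TPM the sums at 1 week and 7 weeks overlapped. Over 20270 genes of at least 1 TPM, the median log2 ratio of TPM between 7-week and 1-week noses was -0.492. The median log2 change with TMM was 0.016 over all tested genes, so the rises depend on the scale. gng13.L, a G protein subunit of receptor neurons, rose by 2.83 ± 0.24 (SE) from 1 week to 7 weeks, and umodl1.L, expressed in olfactory epithelium in mammals, by 2.80 ± 0.26. Over the same interval slc17a7.L differed by 0.17 ± 0.19, slc17a7.S by -0.47 ± 0.29 and slc17a6.S by -0.55 ± 0.24, none of which passed the test, and slc17a6.L fell by 0.90 ± 0.24, at a background of 33.5% of genes called and 16.4% called lower. That call was lost without 7-week library 2 (adjusted p = 0.054). Against control noses, general neuron entries were 4 higher and 19 lower at 7 weeks, with a median of -1.115. In that comparison 21.7% of all genes were called higher and 26.8% lower, and tubb3.L fell by 3.14 ± 0.24.

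From 2 days to 1 week slc17a6.L fell by 0.88 ± 0.21, slc17a7.L by 1.16 ± 0.18 and slc17a7.S by 1.06 ± 0.27, at a background of 10.4% of genes called, 6.26% lower and 4.11% higher. The calls of slc17a6.L and slc17a7.S were lost without 2-day library 1 (adjusted p of 0.085 and 0.1) or 1-week library 3 (0.051 and 0.073), and that of slc17a7.S without 1-week library 2 (0.075).

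Whether the organs differed in their change was tested as the change in bulbs minus the change in noses. At 1 week both copies of VGLUT2 and slc17a7.L had fallen less in bulbs than in noses, with differences of 1.05 ± 0.27 (SE) for slc17a6.L, 0.80 ± 0.29 for slc17a6.S and 1.46 ± 0.22 for slc17a7.L, at a background of 25.4% of 34508 genes called and 14.5% called in that direction, and slc17a7.S (0.58 ± 0.26) did not pass the test. At 2 days the test called slc17a7.L, with a difference of 0.84 ± 0.22, at a background of 16.1% called and 10.5% in that direction. At 7 weeks the 4 transporters differed by -0.05 to 0.46 and none passed the test, at a background of 35.7% called.

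GABA genes were close to undetected in whole noses of control larvae, and higher in adult noses and in 2 of the 3 nose libraries at 7 weeks. In the principal cavity of control larvae gad1.1.L stood at 0.429, 0.433 and 0.236 TPM, from 84, 78 and 55 reads. Cavity libraries lay above all whole control noses for gad1.1.L, gad2.L and slc32a1.S, and overlapped them for gad1.1.S and slc32a1.L. The cavity was not tested against whole noses. slc32a1.S stood at 1.87, 1.25 and 2.14 TPM in adult noses, from 231, 161 and 326 reads, against 3, 5 and 7 reads in control noses. gad2.L stood at 0.626, 0.459 and 0.636 TPM in adults, against 0.0224, 0.0358 and 0.0253 TPM in control larvae. Adult and control nose libraries did not overlap for any of the 5 GABA entries, and how many of all genes were separated in this way was not counted. Adult and 7-week noses, the latter larval by their titles, overlapped for each of the 5. Over 12 entries that thyroid hormone induces in frog metamorphosis, 7-week noses summed to 51.2 to 112 TPM. Control noses held 20.4 to 27.7 TPM of these entries and adult noses 242 to 435 TPM. The part of this difference in the GABA genes was not tested.

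By the fit, adult noses were higher by 5.22 ± 1.07 (SE) for slc32a1.S, 4.97 ± 0.96 for gad1.1.L, 4.19 ± 0.80 for gad2.L, 4.07 ± 1.11 for slc32a1.L and 3.14 ± 0.58 for gad1.1.S on the log2 scale, with edgeR adjusted p of 0.0007, 0.00042, 0.00038, 0.0051 and 0.00021. VGLUT2 was higher too, by 1.1 ± 0.19 for slc17a6.L and 1.31 ± 0.22 for slc17a6.S, and VGLUT1 did not pass the test, at -0.22 ± 0.18 for slc17a7.L and 0.07 ± 0.27 for slc17a7.S. These 7 of 9 calls, all higher, stand beside 45.3% of genes called and 22.7% called higher, and they held in every alternative that was run. The value of slc32a1.L, at 0, 3 and 1 reads in control noses, went to 5.25 without control library 2.

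At 7 weeks after transection the nose libraries disagreed. gad1.1.L stood at 2.77, 0.844 and 0.0659 TPM, slc32a1.S at 2.55, 0.894 and 0 TPM and gad2.L at 1.01, 0.401 and 0.0488 TPM. Library 1 was highest for every GABA entry and library 3 lowest, and for slc32a1.S, slc32a1.L and gad1.1.S library 3 lay within or below the range of the control noses. All 5 entries were called higher than in control noses, by 5.99 ± 0.98 (SE) for gad1.1.L, 5.33 ± 1.08 for slc32a1.S, 4.69 ± 0.82 for gad2.L, 3.48 ± 1.22 for slc32a1.L and 2.86 ± 0.59 for gad1.1.S, at a background of 21.7% called higher.

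Those 7-week values rested on the first libraries. Without library 1 the values were 4.83 for gad1.1.L, 4.28 for slc32a1.S, 3.82 for gad2.L and 1.83 for gad1.1.S, and that of slc32a1.L was 1.38 and no longer called (adjusted p = 0.40). The call of slc32a1.L was also lost without control library 1 (0.06) or control library 3 (0.075), and its value went to 4.64 without control library 2 and to 4.13 without 7-week library 2. Without libraries 1 and 2 together, an alternative chosen after seeing the data, no GABA entry was called, and slc32a1.S and slc32a1.L turned to -5.56 and -3.72. The fit then assumes that the lone library varies like the other groups.

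Brain transcripts moved with the GABA genes in these noses. Among the forebrain markers, 11 entries had a mean level in control noses below 1% of that in control bulbs. Expressed as a percent of the control bulb mean, their median was 2.28, 0.378 and 0.15 in the 3 nose libraries at 7 weeks, and the median of the 5 GABA entries was 2.07, 0.755 and 0.0617. The order of the libraries was the same for both. In adult noses the marker median was 0.23, 0.331 and 0.381% and the GABA median 1.18, 1.02 and 1.37%. The GABA median thus stood above the marker median in each of the 3 libraries, although npy.S stood above gad1.1.L in library 1. No adult bulb was sequenced, so the percents of adult noses also refer to larval control bulbs. The part of that reference in the gap between the medians was not tested. In control noses the medians were 0, 0.0354 and 0.0403% for markers and 0.0282, 0.0675 and 0.0372% for GABA genes. As in adult noses, the GABA median was the higher in each library of the principal cavity and of the amino acid dose of 200. The cavity medians were 0.225, 0.601 and 0.224% for GABA genes and 0.181, 0.191 and 0.218% for markers. At 200 they were 0.0392, 0.0415 and 0.148% against 0.0256, 0.035 and 0.133%. In the remaining nose groups this did not hold in every library.

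Single markers did not all follow. In 7-week noses npy.S (3.45, 0.154 and 0.286% of bulb) and zic4.L (2.13, 0.323 and 0.602%) broke the order of libraries, and the other markers kept it. nkx2-1.L, a forebrain factor at 66.3 to 74.6 TPM in control bulbs, kept that order, at 1.61, 0.273 and 0 TPM. It had no read in any of the 3 adult noses, the only marker of the 11 without one. The whole list of 23 forebrain entries, which includes genes that the nose expresses itself, summed to 251 to 320 TPM in adult noses, 220 to 327 TPM in control noses and 70.3 to 155 TPM in 7-week noses, with 1 entry at 0 in adult noses as a group. In adult noses 11 of its entries were called higher and 2 lower, beside 22.7% of all genes called higher and 22.6% lower. The part of brain tissue in the level of the GABA genes was not tested.

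**Figure D4:**
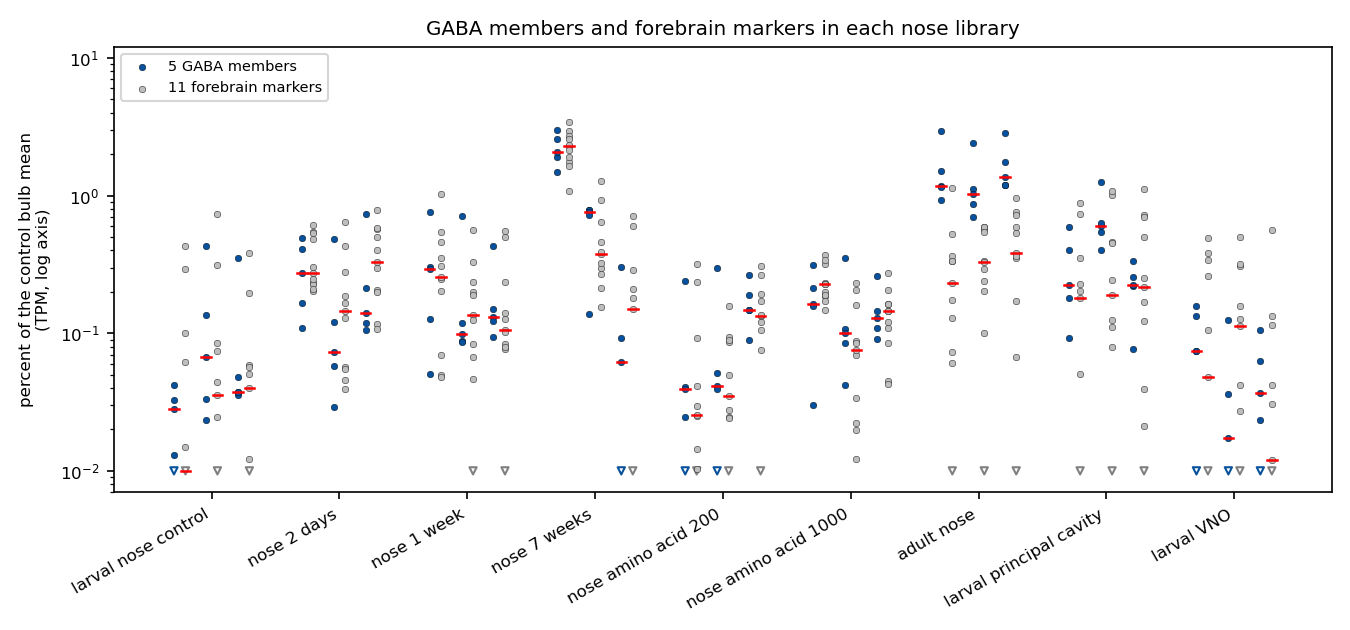
Level of the 5 GABA entries (blue) and of 11 forebrain markers that are below 1% in control noses (grey) in each nose library, as a percent of the mean TPM in control bulbs (log axis). Red bars are medians, drawn at the lower edge where the median is 0, open triangles stand for entries without a read, and in adult noses the GABA medians of 1.02 to 1.37% lie above the marker medians of 0.23 to 0.381%.

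Other neuron genes differed in adult noses as well. nefl.L and nefm.L, neurofilament subunits of large axons, rose by 3.56 ± 0.62 (SE) and 3.99 ± 0.85, and eomes.S, a factor of mitral cell precursors in the mammalian bulb, by 3.64 ± 0.88. nefl.L stood at 1.76, 4.31 and 7.00 TPM in the 3 adult libraries and eomes.S at 1.76, 4.13 and 7.52 TPM, in an order that differed from that of gad1.1.L, which stood at 0.987, 0.746 and 1.27 TPM. Of 15 tested entries for GABA uptake and breakdown, 4 were higher and 2 lower in adult noses. Over all genes in adult noses, 45.3% were called, 22.7% higher and 22.6% lower, so that count stands near the background. gad1.2.L, a further gad1 copy, rose by 1.85 ± 0.44 there, to 0.356 to 0.782 TPM.

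In 2-day and 1-week noses gad1.1.L alone of the GABA genes was called higher than in control noses, by 2.86 ± 0.98 (SE) and 2.85 ± 0.99, at backgrounds of 9.62% and 18% of genes called higher. It stood at 0.290, 0.129 and 0.229 TPM at 2 days and at 0.322, 0.0934 and 0.141 TPM at 1 week, and all of these libraries lay above the control noses. The 2-day call (adjusted p = 0.048) was lost without any 1 of the 6 libraries, with adjusted p between 0.0599 and 0.133. The 1-week call (0.029) was lost without control library 1 (0.083), 2 (0.084) or 3 (0.054) or 1-week library 1 (0.13), where its value was 2.19. The forebrain marker median was 0.272, 0.145 and 0.327% of bulb at 2 days and 0.255, 0.135 and 0.106% at 1 week, and its part was not tested.

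From 1 week to 7 weeks gad2.L rose by 3.59 ± 0.76, gad1.1.L by 3.14 ± 0.80, slc32a1.S by 2.81 ± 0.89 and gad1.1.S by 1.51 ± 0.55, at a background of 17.1% called higher. Without 7-week library 1 the values were 2.67 for gad2.L, 1.93 for gad1.1.L, 1.71 for slc32a1.S (adjusted p = 0.13) and 0.44 for gad1.1.S (0.51). The call of gad1.1.S was also lost without any 1-week library (0.066, 0.075 and 0.14), and that of slc32a1.S without 1-week library 2 (0.079) or 3 (0.085); without 1-week library 1 gad1.1.L was at 3.8. With the fit limited to these 2 groups, none of the 9 entries but gad2.L was called. From 2 days to 7 weeks 8 entries were called, all but slc32a1.L, at a background of 40.2%. The transporters fell by 1.00 ± 0.19 (slc17a7.L) to 1.79 ± 0.23 (slc17a6.L), and the GABA entries rose by 1.93 ± 0.56 (gad1.1.S) to 3.84 ± 0.95 (slc32a1.S). Without 7-week library 1 the GABA values were 1.96 for gad1.1.L, 2.7 for gad2.L, 2.78 for slc32a1.S and 0.89 for gad1.1.S (adjusted p = 0.15).

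Exposure to amino acids for 5 h went with lower VGLUT1 in the nose. slc17a7.S stood at 1.24, 1.55 and 1.00 TPM in control noses, at 0.45, 0.477 and 0.402 TPM at the dose of 200 and at 0.457, 0.346 and 0.374 TPM at 1000. slc17a7.L stood at 4.23, 3.77 and 2.87 TPM at 200 and at 2.97, 2.61 and 2.22 TPM at 1000. All exposed libraries lay below all control libraries for both copies, a separation whose share over all genes was not counted.

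The falls were 1.29 ± 0.27 (SE) for slc17a7.S and 0.60 ± 0.18 for slc17a7.L at 200, and 1.30 ± 0.27 and 0.90 ± 0.18 at 1000, at backgrounds of 35.4% and 49.5% of genes called, and 17.7% and 22.7% called lower. The call of slc17a7.L at 200 was lost without control library 2 (adjusted p = 0.075). VGLUT2 did not pass the test at either dose, with log2 changes of 0.01 ± 0.19 and -0.42 ± 0.20 for slc17a6.L and 0.34 ± 0.22 and -0.34 ± 0.22 for slc17a6.S. Between the doses, slc17a6.S fell by 0.69 ± 0.22 from 200 to 1000, at a background of 26.9% called and 10.6% called lower, and this call was lost without any of 4 libraries, namely 1 (0.058) and 2 (0.061) of the lower dose and 2 (0.073) and 3 (0.1) of the higher. General neuron entries were 0 higher and 21 lower of 30 at 1000. Their summed level was 339 to 424 TPM at 200 and 219 to 275 TPM at 1000, against 962 to 1100 TPM in control noses. The 20 olfactory epithelium markers summed to 1010 to 1370 TPM at 200 and 736 to 909 TPM at 1000, against 1740 to 2140 TPM in control noses. The part of both lists in the fall of VGLUT1 was not tested. Genes that thyroid hormone induces in frog metamorphosis stood apart in the same libraries: the summed level of 12 entries was 203 to 247 TPM at 1000 and 32.9 to 44.6 TPM at 200, against 20.4 to 27.7 TPM in control noses and 242 to 435 TPM in adult noses. At 1000, 5 of these entries were called higher and 3 lower, beside 26.8% of all genes called higher and 22.7% lower. The part of these entries in the results at this dose was not tested.

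Of the GABA genes, gad1.1.L was called higher at 1000, by 2.71 ± 0.97, standing at 0.175, 0.0913 and 0.156 TPM, at a background of 26.8% called higher. That call (adjusted p = 0.028) was lost without control library 1 (0.078), control library 2 (0.095), 1000 library 1 (0.061) or 1000 library 3 (0.067). No other GABA entry was called at either dose. The forebrain marker median at 1000 was 0.227, 0.076 and 0.144% of bulb.

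Between the principal cavity and the VNO, 1 copy of VGLUT1 differed, and VGLUT2 did not pass the test (0.62 ± 0.33 for slc17a6.L and 0.50 ± 0.37 for slc17a6.S). slc17a7.S stood at 1.45, 1.56 and 0.975 TPM in the principal cavity and at 2.11, 3.78 and 2.57 TPM in the VNO, with no overlap, a difference of -1.31 ± 0.21 (SE) for the cavity against the VNO (edgeR adjusted p = 0.0057). It was the single call among 8 tested entries, at a background of 15.2% of 31396 genes called, 6.53% lower and 8.66% higher. With both copies summed the difference was -0.18 and no longer called (adjusted p = 0.54), since slc17a7.L stood at 9.43, 7.59 and 9.56 TPM in the cavity and 4.36, 9.00 and 7.70 TPM in the VNO.

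The GABA entries were 1.79 to 3.42 higher in the principal cavity on the log2 scale. None passed the edgeR test, with adjusted p between 0.088 and 0.13, at a background of 8.66% of all genes called higher in the cavity. For gad1.1.L, gad1.1.S, gad2.L and slc32a1.S every cavity library lay above every VNO library. The share of all genes with such a separation was not counted, so this is no result about these entries. slc32a1.L, with 2, 12 and 2 reads in the cavity and 0, 0 and 3 in the VNO, was not tested. Without VNO library 1, gad1.1.L (4.03), gad1.1.S (6.03) and gad2.L (3.28) were called. Forebrain markers moved the same way: 9 of 17 tested entries were higher in the cavity and 2 lower, and their part was not tested.

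Homeologs of one gene were not used in the same proportion in both organs. The .L copy held 83.4 ± 1.7% (SD, n = 3) of the TPM of slc17a7 in control noses and 59.6 ± 0.9% in control bulbs, and 36.9 ± 0.8% of slc17a6 in noses and 18.7 ± 0.3% in bulbs. The libraries of the organs did not overlap, and how many homeolog pairs of other genes were separated in this way was not counted. In the VNO the .L share of slc17a7 was 67.4, 70.4 and 75.0%, below the 83.0 to 90.7% of the principal cavity. The nose held 87.7 to 90.4% at the amino acid dose of 200 and 85.6 to 88.3% at 1000, both above its control range of 81.4 to 84.7%.

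In the bulb the shares of gad1.1, slc32a1, slc17a6 and slc17a7 shifted after transection. The .L share of gad1.1 was 68.6, 68.9 and 69.8% in control bulbs, 67.3, 67.5 and 66.7% at 2 days, 72.5, 72.2 and 71.5% at 1 week and 74.4, 74.3 and 75.2% at 7 weeks. No 2 groups overlapped for gad1.1, and such separation was not counted over other homeolog pairs. For slc32a1 it was 17.7, 18.2 and 18.2% in control bulbs and 12.2, 13.6 and 15.1% at 7 weeks. For slc17a7 it rose from 58.6 to 60.2% in control bulbs to 63.0 to 65.5% at 2 days and lay at 51.9 to 56.9% at 7 weeks. For slc17a6 it was 18.5, 19.1 and 18.6% in control bulbs and 16.8, 13.1 and 15.3% at 7 weeks. All operated bulbs lay below all control bulbs for slc17a6. How reads shared by near-identical copies were counted is not given in the sources used here, so these shares depend on that step.

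**Figure D5:**
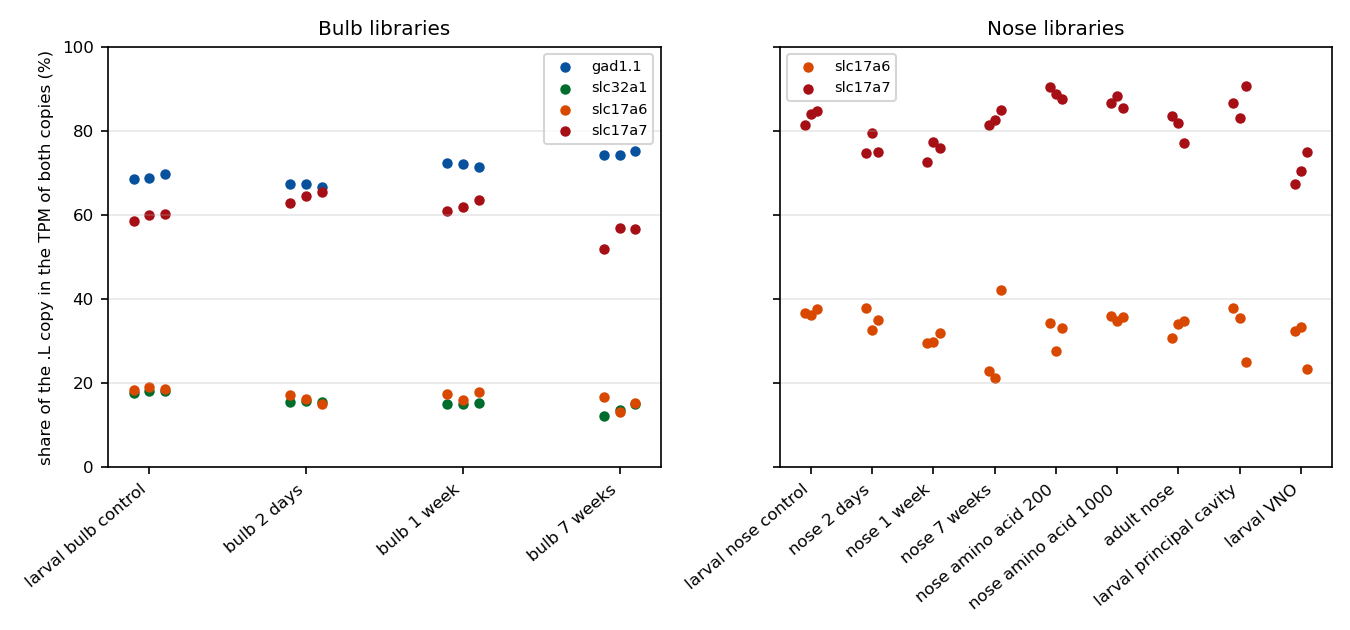
Share of the .L copy in the summed TPM of both copies (percent) in each library (points), for gad1.1, slc32a1, slc17a6 and slc17a7 in bulbs and for slc17a6 and slc17a7 in noses. In bulbs gad1.1 goes from 68.6 to 69.8% in control libraries to 74.3 to 75.2% at 7 weeks.

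Genes with the most similar profile were ranked for each member by Pearson's r of log2(CPM + 1), where CPM is counts scaled to library size, over the 12 bulb libraries, among 18907 entries. Libraries of a group are not independent points here, and r describes these libraries alone. For slc17a7.S the closest was nsg1.S (r = 0.996), a neuronal endosome protein, and for slc17a6.S grik4-like.L (0.989), named after a kainate receptor subunit. For gad2.L the closest was tmem184b.S (0.986) and for slc32a1.S homer2.S (0.963), a scaffold of glutamate synapses. Among the members, homeologs of a glutamate transporter were the closest, with r = 0.984 for slc17a6 and 0.957 for slc17a7, and slc32a1.L and slc17a7.S had r = 0.933. gad2.L and slc32a1.S had r = 0.836, and gad1.1.L and slc32a1.S had r = -0.468. Over the 13 group means, where the gap between bulbs and noses sets most of the likeness, hpcal4.L (a neuronal calcium sensor) was among the closest to gad1.1.L, gad2.L and slc32a1.S, with r of 0.999 for each. For slc17a6.L, which both organs express, the closest reached 0.928 (fbxo22.L).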

How the data were processed

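Whole-tissue RNA of Xenopus laevis was sequenced in 39 libraries, of 3 per group. Reads were processed with bcl2fastq 2.17.1.14, STAR 2.5 and featureCounts of Subread 1.5.0, per the submitters' processing notes. Genome build, annotation and strand setting of the counting: not given in the sources used here. Hence no coordinates are printed and overlapping or antisense genes cannot be told apart. The authors deposited raw counts per gene, TPM and a normalised table, whose values are a scaled signal: in all 39 libraries they are a constant multiple of the deposited counts, and they were not used in tests. Of 37240 entries, 17 repeated another with identical counts and were dropped.

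TPM deposited by the authors served for levels, ratios and homeolog shares. Tests ran on the raw counts with edgeR 4.0.16 in R 4.3.3 (filterByExpr with a minimum count of 10 and a minimum total of 15, TMM, robust quasi-likelihood), adjusted over all genes. Noses (7 groups, 21 libraries), bulbs (4 groups, 12 libraries) and the 2 dissected chambers (6 libraries) were fitted apart, and 24 libraries together for contrasts between organs. The standard error of a log2 fold change is its size divided by the square root of F. The nose, bulb and chamber fits were also run on simulated counts, the chamber fit with the column number as a block, unlike the fit reported. The fit of 24 libraries was not simulated. Results of the simulation are not reported here. Alternatives were DESeq2 1.42.0 (Wald test), its size factors in edgeR, no low-count filter, homeologs summed, only the compared groups, all libraries in 1 model, leaving out each library and, for the chambers, the column number as a block. For the ratio they were CPM in place of TPM, and slc32a1 over slc17a6. A library of lower depth gives fewer reads and less precise values, and read numbers are printed where they are low.

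Members and the 12 gene lists were chosen with earlier results of these data known. Every member is described. From each list, up to 4 called entries of at least 1 CPM (counts scaled to library size) per comparison, largest change first, may be named. nkx2-1.L lies outside that rule and was named after its values were seen. In the same way npy.S and zic4.L were named after their values were seen. Some items are not reported here. The most similar genes are the first of 5 ranked per member, among entries of at least 5 CPM in a group.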

Additional observations from a re-analysis of the deposited data

Results flagged for a closer look

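The tests of the change in bulbs minus the change in noses singled out 9 results, each because the change from control larvae differed between the organs in 1 model of 24 libraries. At 2 days the difference was 0.84 (log2) for slc17a7.L, which fell in noses and did not pass the test in bulbs. At 1 week it was 1.05 for slc17a6.L, 0.80 for slc17a6.S and 1.46 for slc17a7.L, all of which had fallen further in noses. The edgeR call for slc17a6.S (adjusted p = 0.047) was lost in 9 of the fits that left out 1 library of the 12 compared, with adjusted p up to 0.12.

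At 7 weeks the difference was -5.86 for gad1.1.L, -3.05 for gad1.1.S, -4.64 for gad2.L, -3.75 for slc32a1.L and -5.34 for slc32a1.S, since these genes were called higher in noses while their log2 changes in bulbs ran from -0.53 to 0.07. Without nose library 1 of 7 weeks the values were -4.81, -2.12, -3.84, -1.91 (no longer called, adjusted p = 0.16) and -4.46. Without nose library 2 of 7 weeks the value of slc32a1.L was -4.61, and without control nose library 2 it was -4.91.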

How the results depend on the processing

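Over the results for single members, 2241 outcomes under an alternative kept direction and side of the threshold, 110 lost a call, 58 gained one and 3 turned. The 3 were gad1.1.S in bulbs from 2 days to 7 weeks (0.0117 with homeologs summed) and, without nose libraries 1 and 2 of 7 weeks, slc32a1.S (-5.56) and slc32a1.L (-3.72); the last fit called 4 members against 9. The ratio of GABA to glutamate in bulbs kept its direction in every alternative.

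Counts of called members also moved with the choice of model. With only the compared groups fitted, they were 1 against 5 for noses from 1 to 7 weeks, 5 against 8 from 2 days to 7 weeks, 6 against 3 at the amino acid dose of 1000, 3 against 1 between doses, and 3 against 1 at 2 days and 7 against 3 at 1 week for bulbs against noses. With all 39 libraries in 1 model they were 1 against 3 for bulbs at 2 days, 3 against 6 at 1 week, 0 against 4 from 2 days to 1 week, 3 against 5 from 1 to 7 weeks, 5 against 1 between the chambers, and 0 against 1 for bulbs against noses at 2 days. DESeq2 gave 2 against 1 between doses, 4 against 1 between the chambers and 2 against 1 for bulbs against noses at 2 days. With homeologs summed, where both copies carry the result of their gene, these were 2, 0 and 0 entries. The counts of 0 are from edgeR: at an unadjusted p under 0.05 there were 1 entry for bulbs from 2 days to 1 week and 2 for bulbs against noses with all libraries in 1 model, and 3 of 5 summed genes between the chambers and 1 of 5 for bulbs against noses. The cause was not tested.

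Leaving out 1 library gave 1 to 2 called members for noses at 2 days, 1 to 2 at the dose of 200, 1 to 3 from 2 days to 1 week, 3 to 6 from 1 to 7 weeks, 0 to 1 between doses (1 or 2 at an unadjusted p under 0.05 in edgeR where none was called), 2 to 4 for bulbs from 2 days to 1 week, and 1 to 4 between the chambers.

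Over all genes, fitting only the compared groups changed calls from 16569 to 8563 for 7-week noses against control, from 11426 to 4843 and from 13740 to 7151 against 1 week and 2 days, from 3539 to 6995 for noses and from 4202 to 10187 for bulbs between 2 days and 1 week, from 9193 to 14125 between doses, and from 5542 to 8646 and 12322 to 7381 for bulbs against noses at 2 days and 7 weeks. All libraries in 1 model gave 1218, 7506 and 13486 calls for bulbs from 2 days to 1 week, for bulbs from 1 to 7 weeks (12240) and between the chambers (4768). No label ties a library of a group to one of another. The title numbers of the chambers alternate, but columns carry only the numbers 1 to 3, and deviations of like-numbered chamber libraries from their group means had r of -0.078, 0.115 and 0.236, so they share only a number, and not every library was closest to its own number. With that number as a replicate block, a fit added after seeing the data, 1 member was called as before, and 4854 genes against 4768. Depth limits the GABA genes in larval noses, at 0 to 38 reads per library in controls.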
